A study of Drosophila melanogaster with 11 samples.

Results

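Mmp1, Mmp2, Timp, tok, Ance, Ance-2 and Sb are 7 of the 16503 genes listed in any of 11 single-cell libraries of Drosophila wing discs, and they encode extracellular proteases together with 1 protease inhibitor. They were selected on their measured levels in the cell classes and on the genes found in the same cells, so that these levels, the subsets and the genes beside them are given as a description without a test. All 7 had counts in each of the 11 libraries. Drop-seq tags the transcripts of each droplet with a cell barcode and each transcript with a random identifier (UMI), and each UMI was counted once.

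Wing discs of wandering larvae of the third instar raised at 25°C were dissected, the pouch was removed, and the remaining notum and hinge were dissociated with trypsin and collagenase. All flies carried the 1151-GAL4 driver, which is active in the myoblasts. Of the 11 libraries, 4 came from P{1151-GAL4} alone (1151-GAL4, replicates 1 to 4), 4 from the driver with the hairpin P{VALIUM20-mCherry}attP2 (1151>mCherry-RNAi, replicates 1, 5, 6 and 7) and 3 were labelled as the driver with P{TRiP.Ama_HMS00297}attP2 (1151>Ama-RNAi, replicates 1, 4 and 5), a hairpin against the adhesion gene Amalgam (Ama). The first 2 groups together are the 8 wild-type libraries of the study. Nothing in the labels says whether libraries came from separate crosses, and p-values here measure the spread between libraries.

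Proteases outside the cell remodel the matrix and release or destroy signals. Matrix metalloproteases cut basement membrane and cell surface proteins, and in the fly they are needed for the disc to open out at metamorphosis and for tracheal remodelling. Mmp1 is mainly secreted, Mmp2 is held at the membrane by a lipid anchor, and Timp inhibits both. The astacin protease encoded by tok (tolkin) belongs to the Tolloid family, which acts on ligands and antagonists of the BMP and activin pathways. Ance is a secreted homologue of angiotensin-converting enzyme that removes dipeptides from the end of peptides, and Ance-2 is a homologue that lacks residues of its active site. Sb (Stubble) is a transmembrane serine protease that responds to ecdysone and takes part in the eversion of legs and wings and in bristle formation.

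In the BDGP6 annotation, Ance lies on chromosome 2L at 13905645 to 13909212 and Ance-2 at 13909333 to 13911719, both on the plus strand and 120 bases apart. Mmp1 lies on chromosome 2R at 24671294 to 24688184 and Mmp2 at 9611139 to 9683858, both on the minus strand. On chromosome 3R, Timp covers 10203875 to 10213007 on the minus strand, Sb covers 16116161 to 16145284 on the plus strand, and tok covers 24719697 to 24749125 on the plus strand. Mmp1 overlaps Pof, Timp overlaps Syn and Sb overlaps Mic26-27, each on the opposite strand. Mmp2 overlaps 10 other annotated features, among them lncRNA:CR44070 on its own strand and asRNA:CR44069 on the other, and tok overlaps 1, on the opposite strand. Whether strand was used in counting is not given in the sources used here, so that reads of these genes and the features they overlap may not be told apart.

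The files held 87813 barcodes, of which 26085 had between 200 and 2500 detected genes and were kept as cells, with 29346401 UMIs. Total UMIs lay between 1335977 and 10548893 per library, and 1151-GAL4 replicates 3 and 4 were the deepest. A barcode was shared with another library by 38 cells, and between 2.21% and 26.4% of the cells of a library had a barcode within 1 base of another one. Cells with at least 2 UMIs of Him, zfh1, twi and CG9650, and more than 2 times as many as of Fas3, grh, ImpE1 and ImpE2, were taken as myoblasts (5188 cells), and the reverse rule gave 12909 epithelial cells. At least 2 UMIs of trh and Cht5 gave 125 tracheal cells, 103 of which were also epithelial by the rule above, and at least 3 UMIs of Idgf4 and Obp56a gave 115 peripodial cells, 50 of which were also epithelial. Of the markers outside the rule, Mef2 had 165 UMIs per 1000000 UMIs (CPM) in myoblasts and 31.5 in epithelium, ovo had 278 CPM in epithelium and 19.6 in myoblasts, and the FGF receptor gene btl had 21.6 CPM in tracheal cells and 2.96 in epithelium. Of 6 tracheal markers, btl and peb were higher in tracheal than in peripodial cells, and against the name serp (269 and 623 CPM), Gasp (68.1 and 194 CPM), verm (174 and 187 CPM) and Tsf2 (61.5 and 102 CPM) were higher in peripodial cells. The sum of the 6 lay between 797 and 844 CPM in tracheal cells, between 1067 and 1731 CPM in peripodial cells and between 220 and 432 CPM in epithelium. The 5 peripodial markers summed to between 820 and 1186 CPM in peripodial cells, 166 and 381 CPM in tracheal cells and 223 and 485 CPM in epithelium. Of 7 hemocyte markers, 6 lay below 5 CPM in myoblasts and epithelium, among them Hml at 2.32 and 2.96 CPM, Ppn, a basement membrane gene, had 167 CPM in myoblasts and 40.2 CPM in epithelium, and each of 4 fat body genes lay below 3 CPM in both.

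Each gene was detected in few cells. Sb had 6386 UMIs in 3778 cells, Ance 7832 UMIs in 2383 cells, Mmp1 2316 UMIs in 1542 cells, tok 1459 UMIs in 1222 cells, Mmp2 943 UMIs in 826 cells, Timp 604 UMIs in 528 cells and Ance-2 412 UMIs in 328 cells. The largest count of Ance in a single cell was 86 UMIs, against 20 for Mmp1, 19 for Sb and at most 9 for each of the other genes. Levels are given as CPM within the cells of a class and library, and libraries with at least 10 cells of the class were used.

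The metalloprotease genes Mmp1 and Mmp2 stood in opposite order in the main classes. Mmp2 was higher in myoblasts than in epithelium in 10 of 10 libraries, at 79.4 ± 37.9 CPM in myoblasts (SD, n = 10) and 22.5 ± 4.66 CPM in epithelium (SD, n = 11). In wild type alone it had 62.0 ± 10.9 CPM in myoblasts and 21.9 ± 3.63 CPM in epithelium (SD, n = 8). In myoblasts, Mmp2 lay at 63.9, 58.1, 51.7 and 68.2 CPM in 1151-GAL4 and at 45.4, 74.4, 57.6 and 76.9 CPM in 1151>mCherry-RNAi. In replicates 4 and 5 labelled 1151>Ama-RNAi it lay at 143 and 155 CPM, from 3 and 5 UMIs. In epithelium its lowest, median and highest values were 15.6, 21.1 and 29.7 CPM, below every myoblast value. The log2 ratio of epithelium to myoblasts within a library, with 10 CPM added to both, was -1.34 ± 0.44 (SD, n = 10). Peripodial cells had 33.7, 137 and 0 CPM of Mmp2 in the 3 libraries used and tracheal cells 46.5 and 38.6 CPM, and with cells thinned to 400 UMIs a UMI of Mmp2 was found in 3.74% of peripodial cells (95% Clopper-Pearson interval 1.03% to 9.30%) and 2.49% of myoblasts (2.06% to 2.98%), which could not be told apart.

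Mmp1 was lowest in myoblasts and highest in tracheal and peripodial cells. It had 34.0 ± 41.3 CPM in myoblasts (SD, n = 10) and 16.9 ± 7.19 CPM in those of wild type alone (SD, n = 8), and the highest value, 143 CPM, came from 3 UMIs in the library labelled 1151>Ama-RNAi replicate 4. In epithelium it had 77.1 ± 32.6 CPM (SD, n = 11) and was higher than in myoblasts in 9 of 10 libraries, that same library being the exception. In the 2 libraries with enough tracheal cells, 1151-GAL4 replicates 3 and 4, Mmp1 lay at 159 and 475 CPM, above the 92.2 and 118 CPM of the epithelium in these libraries. In peripodial cells it lay at 292, 395 and 204 CPM in 1151-GAL4 replicates 3 and 4 and 1151>mCherry-RNAi replicate 5, against 92.2, 118 and 72.3 CPM in their epithelium. The ranges of tracheal and peripodial cells overlapped, and the value for replicate 5 rests on 2 UMIs.

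Depth differed between the classes, with a median of 3978 UMIs per tracheal cell, 1496 per peripodial cell, 879 per epithelial cell and 823 per myoblast. With every cell thinned to 400 UMIs, a UMI of Mmp1 remained in 12.8% of tracheal cells (7.5% to 20.0%), 12.1% of peripodial cells (6.63% to 19.9%), 3.09% of epithelial cells (2.78% to 3.43%) and 0.666% of myoblasts (0.453% to 0.944%), against 55.2%, 36.5%, 9.08% and 1.68% of all cells. This left out 1502 epithelial cells, 532 myoblasts, 8 peripodial cells and no tracheal cell. The order of the classes was therefore the same at 400 UMIs. At 600 UMIs the order of the highest classes turned, with 23.7% of peripodial cells (15.7% to 33.4%) and 17.1% of tracheal cells (10.9% to 24.9%). The tracheal and peripodial shares of Mmp1 could not be told apart at either depth. These intervals cover counting error only.

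Timp, the inhibitor, was higher in myoblasts in most wild-type libraries. In myoblasts it lay at 34.6, 20.5, 32.3 and 36.0 CPM in 1151-GAL4, at 54.5, 38.8, 7.20 and 12.1 CPM in 1151>mCherry-RNAi, and at 0 in the 2 libraries labelled 1151>Ama-RNAi, and in epithelium it lay between 9.68 and 20.9 CPM. It was thus higher in myoblasts in all 4 libraries of 1151-GAL4 and in 2 of the 4 libraries of 1151>mCherry-RNAi. Over the 8 wild-type libraries it had 29.5 ± 15.4 CPM in myoblasts and 15.5 ± 3.66 CPM in epithelium, with a log2 ratio of epithelium to myoblasts of -0.53 ± 0.54 (SD, n = 8), and with the libraries labelled 1151>Ama-RNAi the ratio was -0.15 ± 0.95 (SD, n = 10). Those 2 values of 0 came from 47 cells, in which 3 UMIs would be 56.3 CPM, so that the wild-type level was below detection there. Tracheal cells of 1151-GAL4 replicates 3 and 4 had 73.0 and 42.8 CPM, from 11 and 10 UMIs. A UMI of Timp was found in 12% of the 125 tracheal cells with all UMIs and in 0 of 125 at 400 UMIs, which allows a share of up to 2.4% at that depth (3 cells of 125).

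The astacin gene tok was somewhat higher in epithelium, with 55.7 ± 17.0 CPM (SD, n = 11) against 31.2 ± 18.6 CPM in myoblasts (SD, n = 10), and was higher in 9 of 10 libraries. Values from 26.1 to 83.4 CPM in epithelium overlapped those from 0 to 51.3 CPM in myoblasts. The 2 myoblast values of 0 came from 1151>mCherry-RNAi replicate 1 and the library labelled 1151>Ama-RNAi replicate 4. Tracheal cells had 46.5 and 25.7 CPM, below the 48.0 and 41.7 CPM of the epithelium in these libraries.

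Ance was highest in peripodial cells, lower in epithelium and lowest in myoblasts. Its level was 15.9 ± 18.3 CPM in myoblasts (SD, n = 10) and 312 ± 69.7 CPM in epithelium (SD, n = 11), and the epithelial values from 159 to 440 CPM lay above every myoblast value, the highest of which was 50.4 CPM. In peripodial cells Ance lay at 1932, 989 and 2648 CPM, above the epithelium of the same libraries at 314, 334 and 330 CPM, whereas in tracheal cells it lay at 173 and 120 CPM, below it. With cells thinned to 400 UMIs, 32.7% of peripodial cells had a UMI of Ance (24% to 42.5%), against 7.43% of epithelial cells (6.95% to 7.92%), 4.8% of tracheal cells and 0.730% of myoblasts. When libraries with at least 5 peripodial cells were also used, the mean log2 ratio of peripodial cells to epithelium was 1.58 in place of 2.36, and the 9 peripodial cells of 1151>mCherry-RNAi replicate 7 had 183 CPM, below the 319 CPM of its epithelium.

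Ance-2 was also highest in peripodial cells and near 0 in myoblasts. Epithelium had 16.9 ± 10.5 CPM (SD, n = 11), with a lowest, median and highest value of 5.23, 11.9 and 41.2 CPM, and peripodial cells had 168, 60.8 and 407 CPM from 15, 4 and 4 UMIs. In myoblasts 8 UMIs were counted, all in 1151-GAL4. Epithelium was higher than myoblasts in 10 of 10 libraries, with a log2 ratio of 1.28 ± 0.55 (SD, n = 10) that the added 10 CPM keep small.

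Sb was the only one of the 7 genes that was higher in epithelium than in each of the other 3 classes in every library compared. It had 326 ± 138 CPM in epithelium (SD, n = 11) and 18.9 ± 18.5 CPM in myoblasts (SD, n = 10), and the lowest epithelial value, 133 CPM, lay above the highest myoblast value, 61.9 CPM. Tracheal cells had 39.8 and 150 CPM and peripodial cells 67.4, 137 and 102 CPM, where the epithelium of these libraries had 202, 288 and 294 CPM. At 400 UMIs a UMI of Sb was found in 10.9% of epithelial cells, 2.80% of peripodial cells, 2.40% of tracheal cells and 0.666% of myoblasts.

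**Figure D1:**
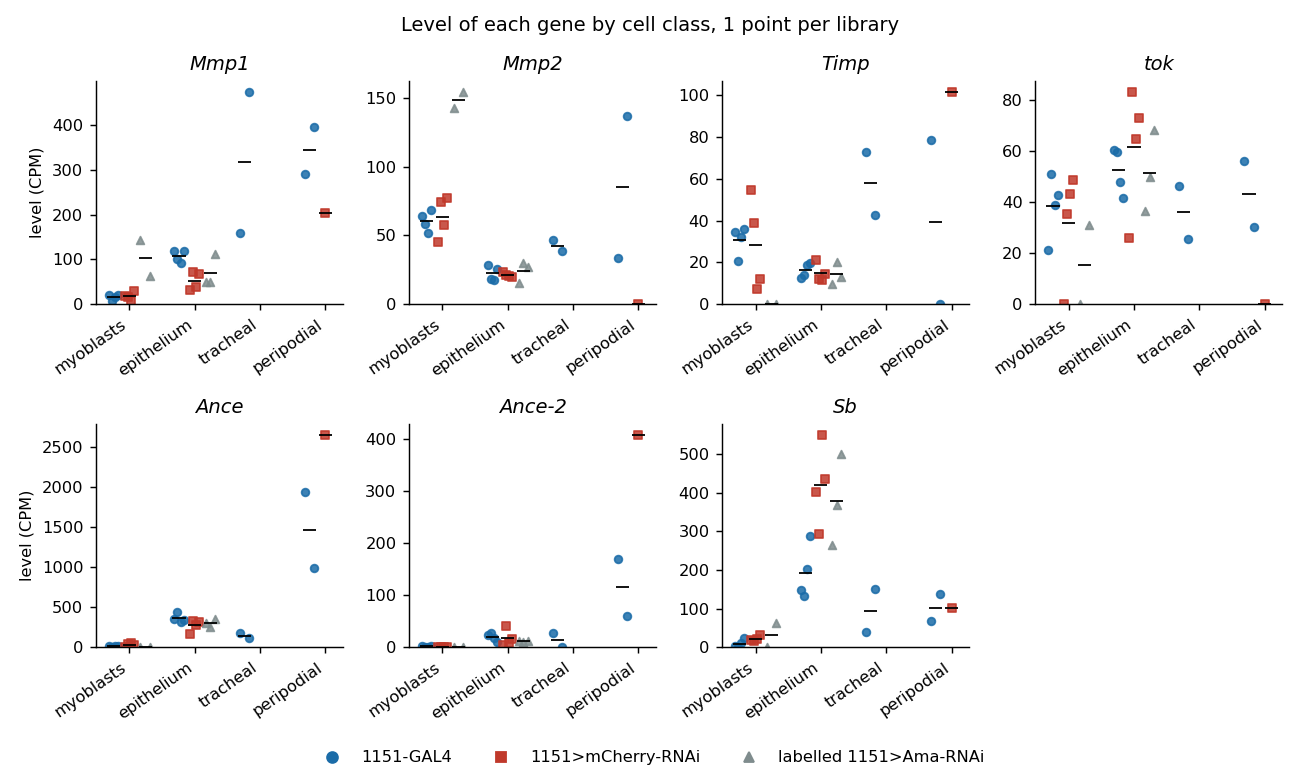
Level of each gene (vertical axis, CPM, linear from 0, a scale of its own for each gene) in 4 cell classes, with 1 point per library with at least 10 cells of the class and a black line at the mean of each group. Sb, Ance and Ance-2 were near 0 in myoblasts, Mmp2 was higher in myoblasts than in epithelium, and Mmp1, Ance and Ance-2 were higher in peripodial cells than in epithelium.

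Of all genes with at least 50 UMIs in the 2 classes, 9.83% were higher in epithelium than in myoblasts in every library, as were Ance, Ance-2 and Sb, and 3.51% were lower in every library, as was Mmp2. Between tracheal cells and epithelium, 24.9% of genes were higher and 30.8% lower in both libraries, as were Mmp1, Mmp2 and Timp on the higher and tok, Ance and Sb on the lower side. The log2 ratio of tracheal cells to epithelium was 0.74 for Mmp2 and turned to -0.22 with at least 3 marker UMIs per cell and to -0.43 with libraries of at least 5 cells, where that of Timp turned from 1.19 to -0.45. Between peripodial cells and epithelium, 8.2% were higher and 34.4% lower in all 3 libraries, as were Mmp1, Ance and Ance-2 on the higher side and Sb on the lower. Because these levels entered the choice of the genes, nothing is read from the counts.

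**Figure D2:**
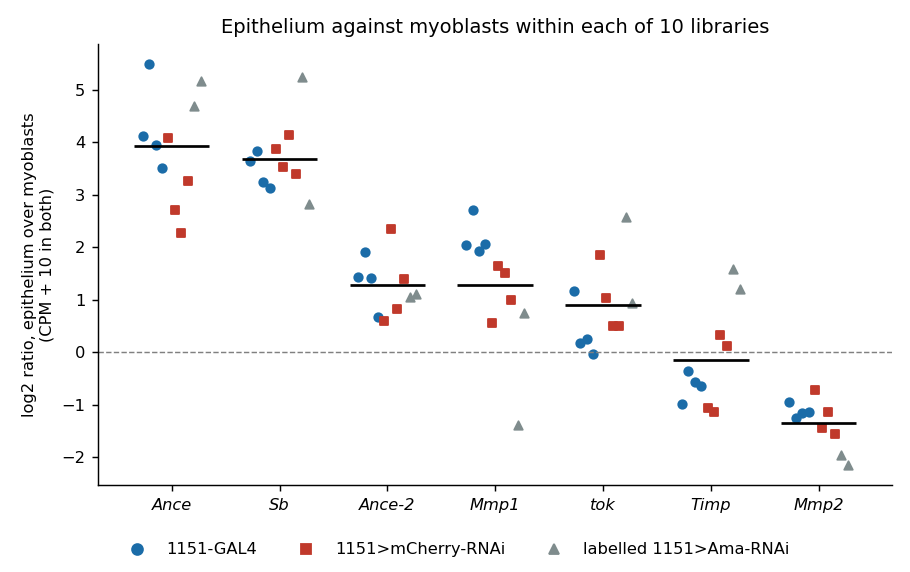
Log2 ratio of epithelium to myoblasts within each of 10 libraries (vertical axis, CPM with 10 added) for the 7 genes (horizontal axis), with 1 point per library and a black line at the mean. All points of Ance, Sb and Ance-2 lay above 0 and all points of Mmp2 below it, and the points of Timp fell on both sides.

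Within the epithelium, Ance was highest in cells of the anterior notum. This region, which gives rise to the front of the thorax, was taken as epithelial cells with at least 2 UMIs of the Pax genes eyg and toe (1198 cells, median 1972.5 UMIs) and was set against the other 11711 epithelial cells (median 822 UMIs). Ance had 1015 ± 194 CPM there (lowest 649, median 981, highest 1316, n = 11) and 163 ± 51.0 CPM in the other cells, of which the highest value was 261 CPM, so that the values did not overlap. Ance-2 had 58.8 ± 44.0 against 8.06 ± 4.30 CPM and was higher in 10 of 11 libraries, and Sb had 449 ± 192 against 300 ± 137 CPM and was higher in 11 of 11 libraries. Timp was lower there in 11 of 11 libraries, with 8.08 against 16.7 CPM, and tok in 10 of 11, with 30.3 against 60.8 CPM. Of 7570 genes, 1.08% were higher in this subset in every library and 1.82% lower.

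In the hinge, the opposite order was found for most of these genes. Hinge cells were epithelial cells with at least 2 UMIs of the transcription factor genes zfh2 and nub (904 cells). Ance (75.7 against 357 CPM), Ance-2 (3.76 against 19.7 CPM) and Sb (184 against 349 CPM) were lower than in other epithelial cells in 11 of 11 libraries, where 0.74% of genes were. Mmp2 (34.1 against 20.5 CPM) and tok (83.1 against 50.6 CPM) were higher in 9 of 11 libraries.

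Ance and Ance-2 were also lower in 11 of 11 libraries in cells with the spalt genes salm and salr (95.7 against 402 CPM and 3.48 against 22.8 CPM, where 0.357% of genes were), and Sb had 317 against 327 CPM there. In cells of the posterior compartment, marked by hh, en and inv, Sb was lower in 10 of 10 libraries (167 against 334 CPM, where 0.674% of genes were), and in cells with kni and knrl (kni group) it was lower in 9 of 9 (161 against 346 CPM, where 1.8% were). In the lateral notum, marked by the Iroquois genes ara, caup and mirr, Ance was lower in 11 of 11 libraries (198 against 385 CPM, where 0.37% of genes were) and Mmp2 in 10 of 11 (16.6 against 26.4 CPM). The cells compared with each of these subsets included cells of the anterior notum, where Ance had 1015 CPM. Epithelium outside the anterior notum had 163 CPM of Ance. This cannot be ranked against the 198 CPM of the lateral notum, from which anterior notum cells were not left out. Mmp1 had no such order, since its mean log2 ratio lay between -0.50 (proneural cells with sca and Ocho) and 0.22 (kni group) in the 8 epithelial subsets, each smaller than its SD over libraries. Cells in every one of these subsets had more UMIs than the cells they were compared with.

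In myoblasts, tok was the member that differed between cells grouped by vg and ct. In the study, precursors of the indirect flight muscles have vg and low ct, and those of the direct flight muscles have high ct without vg. A UMI of vg was found in 2219 of the 5188 myoblasts. Cells without one can therefore include precursors of the indirect flight muscles whose vg was missed. In vg-positive myoblasts tok had 13.0 ± 11.7 CPM against 57.8 ± 29.4 CPM in the others (SD, n = 8) and was lower in 7 libraries, with no UMI on either side in the eighth, 1151>mCherry-RNAi replicate 1. In ct-positive myoblasts without vg (849 cells), tok lay at 40.8, 106, 112 and 116 CPM in 1151-GAL4, at 0, 70.9, 194 and 89.3 CPM in 1151>mCherry-RNAi and at 51.8 CPM in the library labelled 1151>Ama-RNAi replicate 5. The other myoblasts of these libraries had 16.6, 40.8, 23.4, 28.2, 0, 30.0, 8.84, 42.1 and 0 CPM, lower in 8 of 9. Of 5059 genes, 0.751% were lower in vg-positive myoblasts in at least 7 of 8 libraries and higher in none, and 0.178% were higher in these ct-positive ones in at least 8 of 9 and lower in none. Mmp2 and Timp showed no such order, with log2 ratios of 0.12 ± 1.51 and 0.02 ± 0.78 for vg-positive cells (SD, n = 8).

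**Figure D3:**
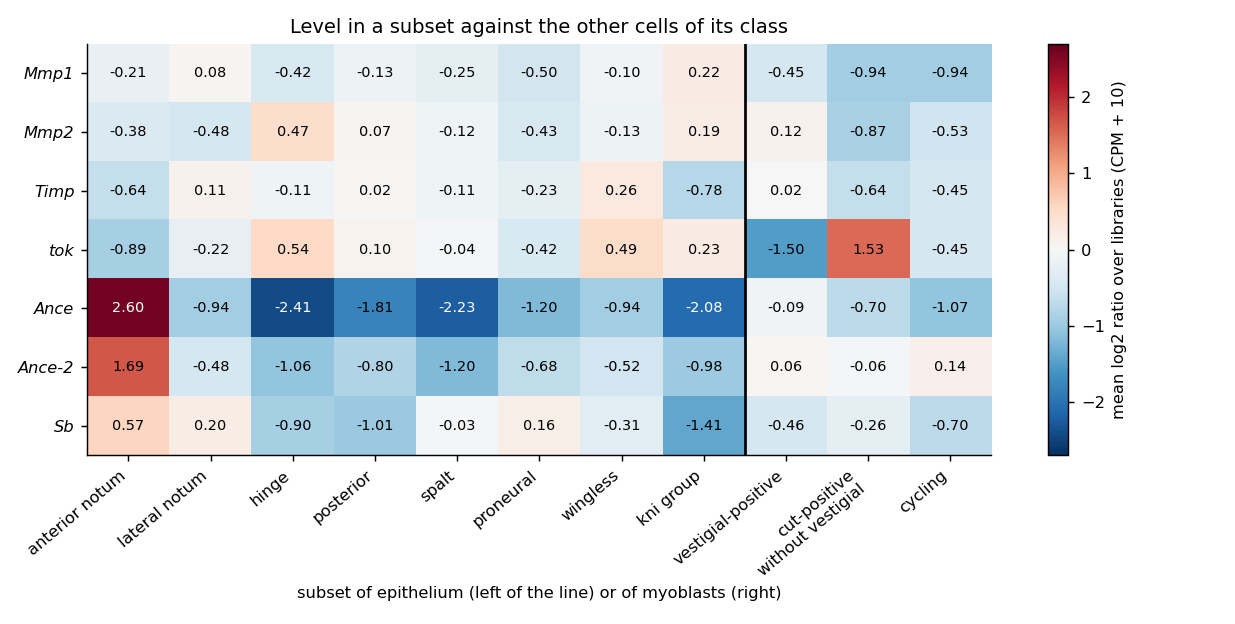
Mean log2 ratio over libraries (colour, CPM with 10 added) of each gene (rows) in a subset against the other cells of its class (columns, 8 epithelial subsets left of the line and 3 myoblast subsets right of it). Ance reached 2.60 in the anterior notum and -2.41 in the hinge, and tok reached 1.53 in ct-positive and -1.50 in vg-positive myoblasts.

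Genes found in the same cells were taken next. Epithelial cells with at least 1 UMI of a member were compared with those without, within each library, and the 5 genes with the largest mean log2 ratio that were higher in every library were taken. Such cells had more UMIs (for example, a median of 1396 against 824 for Ance), and the ratios were therefore computed again with every cell thinned to 400 UMIs.

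Beside Ance, its tandem neighbour Ance-2 led, with a log2 ratio of 2.63 ± 0.51 (SD, n = 11 libraries), followed by the lectin gene Clect27 (1.97 ± 0.77), by eyg (1.80 ± 0.29) and toe (1.47 ± 0.29), and by sr (1.41 ± 0.59), the transcription factor of tendon cells. Of the 238 epithelial cells with a UMI of Ance-2, 200 (84.0%) also had Ance, and these were 11.8% of the 1702 cells with Ance, which was found in 13.2% of all epithelial cells. The list beside Ance-2 held the same genes, with Ance first (3.40 ± 0.47, n = 8). At 400 UMIs the ratios beside Ance lay between 1.39 and 2.45 for these 5 genes. Both genes are on 1 strand 120 bases apart, and reads that run past the end of Ance cannot be told apart from Ance-2 transcripts by these counts. The share of all genes that were higher in every library was 1.78% beside Ance and 5.12% beside Ance-2.

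Beside Sb, the uncharacterized gene CG34247 led with a log2 ratio of 2.32 ± 1.0 (SD, n = 11), followed by toe (0.81 ± 0.13), the bristle and antenna factor gene ss (0.79 ± 0.21), eyg (0.78 ± 0.39) and the BMP modulator gene magu (0.70 ± 0.26), where 0.431% of genes were higher in every library. At 400 UMIs CG34247 had 2.38 and the others between 0.34 and 1.03. Sb and Ance shared cells less closely than Ance and Ance-2, since 34.2% of cells with Ance had Sb, a gene found in 24.7% of epithelial cells. These shares were not set to equal depth. As a level, Sb had 336 CPM in epithelial cells with Ance and 324 CPM in those without, and was higher in 6 of 11 libraries.

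Beside Mmp2, the hinge gene zfh2 was the only gene higher in all 10 libraries used, at 0.66 ± 0.35 with all UMIs and 0.49 at 400 UMIs, that is 0.0443% of 2255 genes. Beside tok in epithelium, CG17124 (1.11 ± 0.67, n = 11) and CG42388 (0.52 ± 0.35) led and had 1.03 and 0.55 at 400 UMIs. unc-119 (0.44), tutl (0.29) and the proteasome gene Rpn7 (0.46) followed, and Rpn7 turned to -0.12 at 400 UMIs. In myoblasts, the genes beside tok were the fusion receptor gene kirre (1.78 ± 0.64, n = 5), the adhesion gene Ten-a (1.61 ± 0.47), the arginine kinase gene Argk (1.55 ± 0.22), the muscle actin gene Act57B (1.39 ± 0.74) and Nrt (1.09 ± 0.25), the receptor of Amalgam. At 400 UMIs these 5 had between 0.81 and 2.13, and they rest on 167 myoblasts with a UMI of tok.

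The lists beside Mmp1 and Timp, and beside Mmp2 in myoblasts, were weak. In epithelium, vir-1, hui, CG10098 and Sec61alpha stood beside Mmp1 at 0.82, 0.64, 0.52 and 0.43, and at 400 UMIs at -0.056, -0.0056, -0.10 and -0.10, and the actin-bundling gene sn alone kept a ratio above 0.1 (0.48 and 0.33). Beside Timp, the EGF receptor ligand gene vn (0.91), osa (0.37) and the furin gene Fur1 (0.31) turned below 0 at 400 UMIs, at -0.30, -0.92 and -0.59, and emc remained at 0.29. In myoblasts, sls, HIP, CG9344 and Cdc42 beside Mmp2 turned from 0.71, 0.61, 0.60 and 0.55 to -0.55, -0.24, -0.037 and -0.42, and Ptp99A had 0.59 and 0.60. Beside Timp in myoblasts, RhoGAP71E, CG32267, Top1 and Atpalpha had between 0.54 and 0.71 with all UMIs and between 0.28 and 0.88 at 400 UMIs, and CG30497 turned from 0.56 to -1.04. Mmp1, Ance, Ance-2 and Sb had too few positive myoblasts for such a list. Genes higher in every library made up 0.215% beside Mmp1, 0.227% beside Timp and 0.233% beside tok in epithelium, and 2.1% beside Mmp2, 6.35% beside Timp and 5.13% beside tok in myoblasts, where fewer libraries were used.

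**Figure D4:**
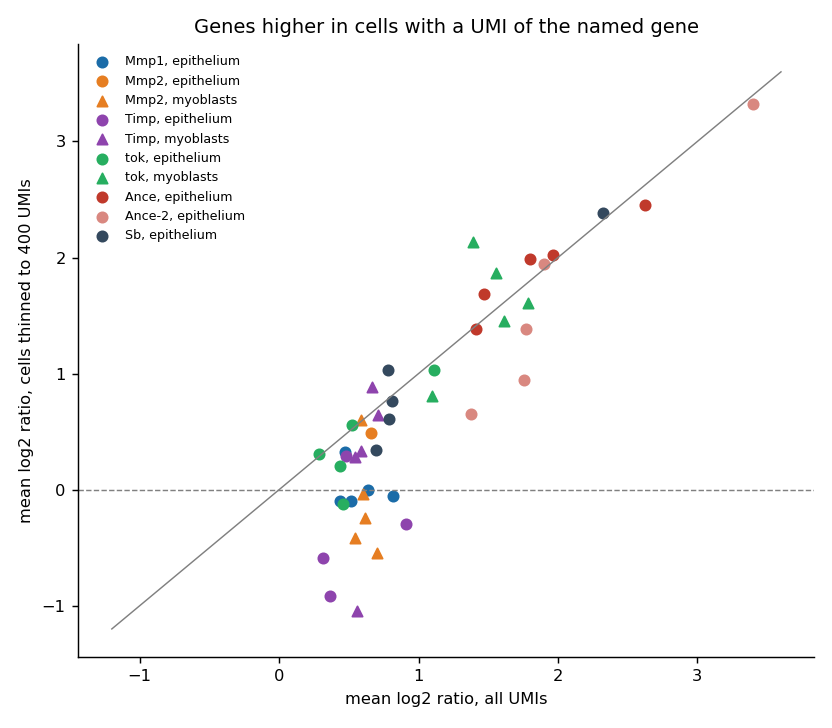
Mean log2 ratio of the genes found beside each member, from all UMIs (horizontal axis) and with every cell thinned to 400 UMIs (vertical axis), with 1 point per gene, circles for epithelium and triangles for myoblasts, a grey line at equal values and a dashed line at 0. Genes beside Ance, Ance-2 and Sb, and beside tok in myoblasts, lay above 0.3 on both axes, and 13 of the points beside Mmp1, Mmp2, Timp and tok fell below 0 on the vertical axis.

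The 2 wild-type lines, which the study pools, differed in Sb and in Mmp1. Sb was higher in the epithelium of 1151>mCherry-RNAi, at 402, 294, 549 and 434 CPM against 148, 133, 202 and 288 CPM in 1151-GAL4, and the groups did not overlap. With edgeR's quasi-likelihood test on UMIs summed per library (4 against 4 libraries, Benjamini-Hochberg adjustment over 5382 genes), the log2 change was 1.19 (SE 0.28, adjusted p = 0.0154), a 2.28-fold higher level. Mmp1 was lower in the epithelium of 1151>mCherry-RNAi, at 31.4, 72.3, 38.9 and 67.0 CPM against 118, 101, 92.2 and 118 CPM, again without overlap, with a log2 change of -0.91 (SE 0.22, edgeR adjusted p = 0.0167), or 0.532 times the level.

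In this comparison 10.5% of all genes were called, 368 higher (6.84%) and 199 lower (3.7%) in 1151>mCherry-RNAi, and the groups did not overlap for 5.1% of genes on the higher and 9.03% on the lower side. Mmp2, Timp, tok, Ance and Ance-2 were not called, with log2 changes of -0.04, -0.24, 0.39, -0.31 and 0.08 and SEs from 0.20 to 0.40. Both calls were lost without 1151>mCherry-RNAi replicate 6 (edgeR adjusted p = 0.0573 for Sb and 0.0742 for Mmp1), and that of Sb also without replicate 7 (0.0668), at log2 changes of 1.07, -0.77 and 1.15.

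The lines were also set side by side within the subsets, without a test. In the anterior notum Sb lay between 439 and 642 CPM in 1151>mCherry-RNAi and between 180 and 413 CPM in 1151-GAL4, without overlap, as were 5.84% of genes, and outside it between 264 and 538 against 118 and 261 CPM, also without overlap, as were 5.19% of genes. In the hinge the ranges of 88.7 to 281 and 97.6 to 200 CPM overlapped, with means of 174 and 132 CPM. Mmp1 in the hinge lay between 11 and 67.0 CPM in 1151>mCherry-RNAi and between 88.8 and 135 CPM in 1151-GAL4, without overlap, and in the anterior notum its ranges of 11.7 to 80.9 and 73.9 to 109 CPM overlapped. In proneural cells and in the kni group the ranges of Mmp1 also overlapped and the means stood the other way. Proneural cells had 0 to 262 CPM in 3 libraries of 1151>mCherry-RNAi and 55.7 to 102 CPM in 4 of 1151-GAL4, with means of 103 and 76.0 CPM. The kni group had 55.2 to 298 and 57.7 to 165 CPM in 3 libraries of each line, with means of 143 and 128 CPM. Ance did not overlap between the lines in the hinge, with 0 to 55.2 CPM in 1151>mCherry-RNAi and 76.5 to 197 CPM in 1151-GAL4. In hinge cells 6.94% of genes were lower in 1151>mCherry-RNAi without overlap. Hinge cells made up between 3.35% and 7.61% of the epithelium in 1151>mCherry-RNAi and between 7.32% and 13.3% in 1151-GAL4, and anterior notum cells between 6.71% and 11.1% and between 8.59% and 11.7%.

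The libraries of the lines also differed in depth, with medians of 503 to 653 UMIs per cell in 1151>mCherry-RNAi and of 703 to 825 in 1151-GAL4. The part of depth in both differences was not tested, and line and any difference in handling of the libraries cannot be told apart. In myoblasts only Mmp2, Timp and tok had enough UMIs for the test of the lines, which called 12.5% of 2525 genes and none of these 3, with log2 changes of 0.08, -0.33 and -0.22 (SE 0.24, 0.44 and 0.41).

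**Figure D5:**
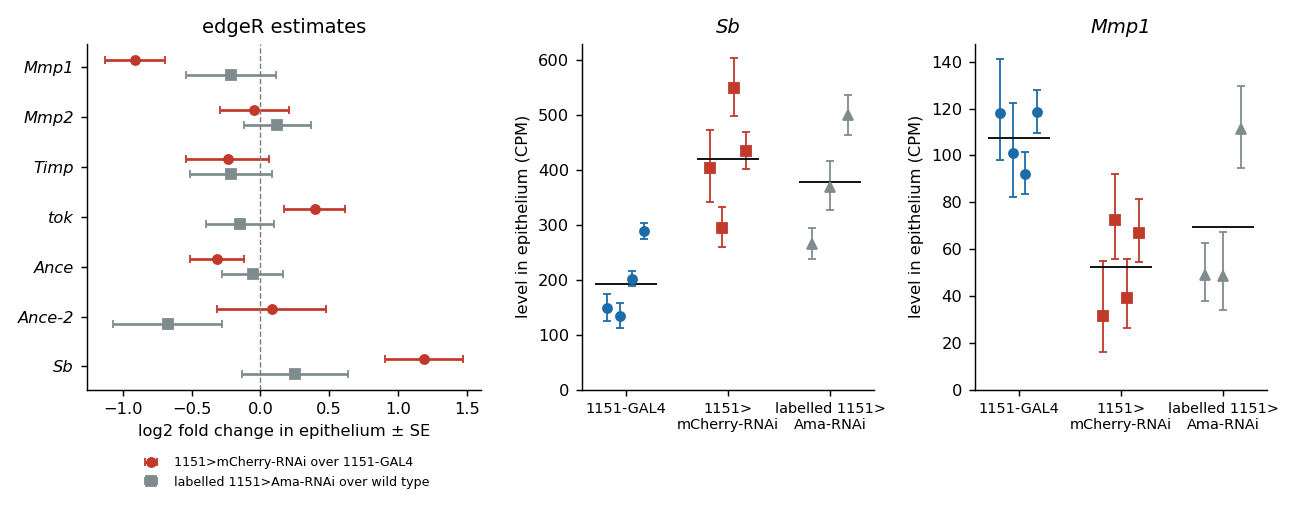
Left, log2 change in epithelium from edgeR with its SE for the 7 genes, for 1151>mCherry-RNAi over 1151-GAL4 (red circles) and for the libraries labelled 1151>Ama-RNAi over wild type (grey squares). Middle and right, level of Sb and Mmp1 in epithelium (CPM) in each library, with exact 95% Poisson intervals for counting error and black lines at group means, where 1151>mCherry-RNAi lay above 1151-GAL4 for Sb and below it for Mmp1.

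In the same comparison of the lines, 7 of the 55 genes tested from 9 lists of proteases, inhibitors and the pathways around them were called in epithelium (12.7%), near the 10.5% of all genes. Of these lists, the ACE family (2 genes tested), the basement membrane and matrix genes (8 tested) and the JNK pathway (6 tested) had no call. The astacin and ADAM metalloproteases had 1 of 5 higher, kuz, the protease that cuts Notch and its ligands (log2 change 0.85, SE 0.22, edgeR adjusted p = 0.0214), and the ecdysone and morphogenesis list had 1 of 11 higher, zip, the heavy chain of non-muscle myosin (0.99, SE 0.23, 0.0151). Of the serpins, inhibitors of serine proteases, 1 of 7 was lower, Spn88Ea (-1.02, SE 0.26, 0.0204). The BMP list had 1 of 9 higher, the heparan sulfate proteoglycan gene dally (0.77), and 1 lower, the ligand gene mav (-0.70), both named after their values were seen, and Sb and Mmp1 were the only calls of the membrane and clip serine proteases (4 tested) and of the matrix metalloproteases and inhibitors (3 tested). The list medians lay between -0.33 (serpins) and 0.65 (membrane and clip serine proteases), beside -0.01 over all genes. In myoblasts 5 of 36 list genes tested were called between the lines (13.9%, beside 12.5% of all genes), with zip, dally and kuz higher (1.10, 0.86 and 0.71) and the kinase gene bsk and BM-40-SPARC lower (-1.07 and -0.68).

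A lower level of the targeted gene was not seen in the libraries labelled 1151>Ama-RNAi, where few myoblasts were left. Ama lay at 381 and 217 CPM in the myoblasts of replicates 4 and 5, from 8 and 7 UMIs, and between 36.3 and 225 CPM in those of wild type, with a log2 change of 0.43 (SE 0.52, edgeR adjusted p = 0.796), and in epithelium its log2 change was -0.09 (SE 0.24). The share of myoblasts was low, with 6, 14 and 33 cells (0.386%, 1.64% and 2.02% of cells) in replicates 1, 4 and 5 against 10.9% to 28% in wild type. Replicate 1 therefore did not enter the comparison of myoblasts. In simulated counts, this comparison of myoblasts recovered 1.15% of log2 changes of 1 and 32.2% of those of 2. These shares are over genes of all levels. For Ama itself the approximate 95% interval of the log2 change ran from -0.58 to 1.44, and a decrease within it could have been missed. The study itself reports that Ama expression was lost in the myoblasts of this genotype.

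In epithelium, none of the 7 genes was called between the 3 libraries labelled 1151>Ama-RNAi and the 8 wild-type libraries, where edgeR called 3 of 5886 genes (0.051%) and 240 had an unadjusted p below 0.05, and DESeq2 called 6. Sb lay at 264, 369 and 499 CPM, within the wild-type range of 133 to 549 CPM, and Mmp1 lay at 49.2, 48.6 and 111 CPM, within 31.4 to 118 CPM. Both ranges are wide because the 2 wild-type lines did not overlap for these genes. In 1151>mCherry-RNAi alone, Sb lay between 294 and 549 CPM, above replicate 1, and Mmp1 between 31.4 and 72.3 CPM, below replicate 5. Neither gene was called in any of 20 alternatives, among them the test against 1151>mCherry-RNAi alone. Ance lay at 307, 247 and 348 CPM, within 159 to 440 CPM, and Ance-2 at 11.9, 10.8 and 11.6 CPM, within 5.23 to 41.2 CPM. Log2 changes lay between -0.67 (Ance-2, SE 0.40) and 0.25 (Sb, SE 0.39). Mmp2, Timp and tok overlapped the wild-type range as well. Of the 9 lists, none had a call in epithelium. In simulated counts, this comparison of epithelium recovered 43.2% of log2 changes of 1 and 97.9% of those of 2. These shares are over genes of all levels. Among the 7 genes the approximate 95% interval of the log2 change was widest for Ance-2 (-1.45 to 0.10) and Sb (-0.50 to 1.01). It was narrowest for Ance (-0.50 to 0.38). Changes within these intervals could have been missed.

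In the 47 myoblasts of replicates 4 and 5, which held 53315 UMIs, most of the 7 genes were at the limit of detection. Mmp1 was found with 3 and 2 UMIs (143 and 61.9 CPM) and lay above the wild-type range of 6.84 to 28.3 CPM, and Mmp2, with 3 and 5 UMIs, lay above 45.4 to 76.9 CPM, as did 8.59% of all genes in these small sums. Neither passed the test, with log2 changes of 1.97 (SE 0.80, edgeR adjusted p = 0.334) and 0.82 (SE 0.48, 0.581), where 0.438% of 3199 genes were called. In these 2 libraries the 5 peripodial markers summed to up to 667 CPM in the myoblasts. Both libraries lay above the 144 to 295 CPM of wild type. Of their myoblasts, 35.7% to 45.5% were ct-positive without vg, against 11.8% to 18.3% in wild type. The part of either in the higher values of Mmp1 and Mmp2 was not tested. These shares rest on 14 and 33 cells and can include cells whose vg was missed. No gain of direct flight muscle precursors is read from them. The study reports the reverse for this genotype, with no myoblasts assigned to its direct flight muscle clusters and none of that type found by staining. The median of all genes in this comparison lay at -0.37 with TMM scaling and -0.17 with RLE scaling, and each change is relative to it. No UMI of Timp, Ance or Ance-2 was counted, and Timp lay below the wild-type range, as did 16.6% of genes. A count of 3 UMIs over both libraries would be 56.3 CPM, above every wild-type value of these 3 genes in myoblasts, and a lower level was not detectable at this depth. The only list gene called in myoblasts was trol, the basement membrane proteoglycan perlecan, which was lower (log2 change -2.01, SE 0.36, edgeR adjusted p = 0.00807), 1 of 9 genes tested in its list. For the difference between myoblasts and epithelium in the change with the label, the interaction term in edgeR, with the library as a block, called 2.13% of 6292 genes and none of these 7 (adjusted p between 0.304 for Mmp1 and 0.955 for Sb). Its SEs lay between 0.61 (Mmp2) and 8.84 (Ance-2) on the log2 scale, so that a difference was not detectable at this depth.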

How the data were processed

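Single-cell libraries were made by Drop-seq, and STAR alignment to BDGP6 and UMI counting per gene and barcode with DigitalExpression (Drop-seq tools) were done by the authors, who deposited raw counts without normalization. All values were whole numbers. Cells with 200 to 2500 genes were kept, and no doublet caller was run. UMI counts were summed per library and class, where a class rule needs 2 marker UMIs (3 for peripodial cells). Libraries with fewer than 10 cells of a class were left out. Groups were compared with edgeR 4.0.16 (quasi-likelihood test, TMM, filterByExpr) in R 4.3.3, with the SE taken as the log2 change over the square root of F. Calls were made at a Benjamini-Hochberg adjusted p below 0.05. DESeq2 1.42.0 was an alternative. Descriptions were computed in Python 3.11.15 with numpy 2.4.6, from genes with at least 50 UMIs. The scripts were tested on simulated data.

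The 7 genes and all lists were chosen with earlier results of these data known. Named were these genes, Ama, the 5 genes most raised beside each gene and class, and at most 5 called list genes per comparison, by size of change. Coordinates came from the Ensembl annotation of BDGP6. Alternatives were another normalization, no filter on low counts, the study's filters on mitochondrial, heat shock and 28S rRNA shares, stricter class rules, overlapping classes left out, other controls, a replicate block and each library left out. 3 alternatives were chosen after seeing the data, leaving out barcodes within 1 base of another, using wild-type libraries alone for epithelium over myoblasts, and using libraries with at least 5 tracheal or peripodial cells.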

Additional observations from a re-analysis of the deposited data

Results flagged for a closer look

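No library stood far from the others of its group in any of the 28 sets of 4 libraries examined for these genes, where chance alone gives about 1 in 20. A signal was found in data that no comparison used, the 7906 cells that met none of the class rules (median 479 UMIs per cell). There Mmp1 had 80.1 CPM, Mmp2 38.0, Timp 23.4, tok 52.3, Ance 264, Ance-2 15.2 and Sb 131 CPM. Each of these values lay between the levels pooled in the same way over myoblasts and over epithelium (for example 19.2 and 92.3 CPM for Mmp1), except that of tok, at 39.1 and 52.1 CPM.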

How the results depend on the processing

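The calls of Sb and Mmp1 between the lines kept their direction under all 15 alternatives, with log2 changes from 1.04 to 1.5 and from -1.12 to -0.77, and lost significance only without the libraries named in the report. No other gene of the 7 crossed the threshold in any alternative. The counts of genes called were less stable. For the libraries labelled 1151>Ama-RNAi, 6 genes were called in epithelium with DESeq2, 14 without a filter on low counts, 8 against 1151>mCherry-RNAi alone and 9 with a replicate block, beside 3, and between 2 and 4 with a library left out. In myoblasts the counts were 32 with DESeq2, 37 without a filter, 1 with at least 3 marker UMIs and 8 without barcodes within 1 base of another, beside 14, and between 2 and 14 with a library left out, and 14 with the replicate block. Between the lines, leaving out a library gave 133 to 906 calls in epithelium (376, 244 and 374 without 1151-GAL4 replicates 1, 3 and 4, and 906, 220 and 133 without 1151>mCherry-RNAi replicates 1, 6 and 7) and 116 to 490 in myoblasts (121 without 1151-GAL4 replicate 3, and 490, 141 and 116 without those 3 libraries of 1151>mCherry-RNAi). The interaction called 20 genes with DESeq2, 32 with RLE scaling, 81 without a filter, 9 with at least 3 marker UMIs and 47 against 1151>mCherry-RNAi alone, beside 134, and 22 to 226 with a library left out. There, 11.9% of calls were higher with TMM and 53.1% with RLE, and the median of all genes lay at -0.72 and -0.36, while in myoblasts 64.3% and 78.6% of the calls were higher and the medians lay at -0.37 and -0.17. For these myoblast comparisons a direction is therefore relative to the scaling. Whether numbers shared between groups mark a pairing of libraries is not given in the labels. Of 5 pairs of libraries with the same number, 1 had a correlation of deviations above 0.1 (0.32), the highest of all pairs between groups. So few pairs cannot decide the question.

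Mmp2 in tracheal cells over epithelium turned from 0.74 to -0.22 with at least 3 marker UMIs and to -0.43 with libraries of at least 5 cells, and Timp from 1.19 to -0.45 there. Of the genes found beside a member, the ratios that turned at 400 UMIs were -0.056 (vir-1), -0.0056 (hui), -0.10 (CG10098 and Sec61alpha), -0.30 (vn), -0.92 (osa), -0.59 (Fur1), -0.12 (Rpn7), -0.55 (sls), -0.24 (HIP), -0.037 (CG9344), -0.42 (Cdc42) and -1.04 (CG30497). The cause was not tested. Tracheal and peripodial levels rest on 2 and 3 libraries, and the myoblasts of the libraries labelled 1151>Ama-RNAi on 47 cells.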
